A study of Homo sapiens with 4 samples.

Results

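The enzymes that make NAD and several that use it were followed in PANC-1 cells after knockdown of SIRT1, itself a deacetylase that consumes NAD. The set comprised 10 genes of the pathway, chosen by name and matched by symbol: NAMPT, NMNAT1, NMNAT2 and NMNAT3 of the salvage route, QPRT and NADSYN1 of the de novo route, NADK and NNT of NADP metabolism, NNMT, which removes nicotinamide, and PARP2, which consumes NAD. All 10 were found among the 16878 genes of the deposited expression table. PANC-1 is an established human line from a pancreatic ductal carcinoma. Cells were transfected with siRNA against SIRT1 (siSIRT1) or with a control (Control), and RNA was taken after 48 h. Each of the 2 groups held 2 libraries. The study therefore rested on 1 cell line and 1 time point, the sequence of the control was not described, and whether the libraries came from separate cultures was not stated, so p-values here measure the spread between these libraries.

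NAD is a carrier of electrons and also a substrate that some enzymes break to release nicotinamide. In the salvage route NAMPT joins nicotinamide to phosphoribose to give nicotinamide mononucleotide (NMN), and the NMNAT enzymes turn NMN into NAD. In the de novo route tryptophan is degraded through kynurenine to quinolinate, which QPRT turns into nicotinic acid mononucleotide. The NMNAT enzymes adenylate that product too, and NADSYN1 amidates the result to NAD. NADK phosphorylates NAD to NADP. Sirtuins and PARP enzymes consume NAD, and NNMT methylates nicotinamide and so removes it from salvage.

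After SIRT1 knockdown QPRT and PARP2 rose and NAMPT fell, while NMNAT1, NADSYN1, NADK and NNT did not pass the test. NMNAT2, NMNAT3 and NNMT lay below the level at which genes were tested. Levels are FPKM, fragments scaled by transcript length and by the mapped total of the library, a per-length unit in which genes can be set side by side. Changes are differences of log2(FPKM + 1), siSIRT1 minus Control, from limma fitted across 12191 genes averaging 1 FPKM or more, with Benjamini-Hochberg adjustment over all of them and a threshold of 0.05. Because 1 is added, the log2 scale understates the change of low genes.

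Estimated depth was 8780000 to 9150000 reads per library, read from the smallest steps between FPKM values of single-exon genes. Across genes the correlation of log2 levels was 0.9953 between the Control libraries, 0.993 between the siSIRT1 libraries and 0.9672 to 0.9707 between groups. Of the epithelial markers, KRT8, KRT18 and KRT19 lay between 313 and 2745 FPKM in every library, and KRT7, CDH1 and EPCAM were lower, at 2.89 to 11.2 FPKM. Markers of the line itself moved with the knockdown. VIM, a mesenchymal intermediate filament, fell from 2198 and 2049 FPKM to 1503 and 1427 FPKM (log2 change -0.53, limma adjusted p = 0.00126), and KRT19 rose from 327 and 313 FPKM to 394 and 365 FPKM (log2 change 0.25, limma adjusted p = 0.0178). KRT18 rose too (log2 change 0.26, limma adjusted p = 0.0350), while KRT8 (adjusted p = 0.0513), EPCAM (0.0555), CDH1 (0.186) and KRT7 (0.647) did not pass. Their part in the results on NAD genes was not tested. The leukocyte marker PTPRC was at 0.97 to 1.29 FPKM and the endothelial marker PECAM1 at 0.59 to 0.75 FPKM. The defining markers of endothelium (CDH5), acinar cells (PRSS1, CPA1) and fibroblasts (DCN) did not exceed 0.15 FPKM. In bulk RNA of this kind, fewer cells of a type and less RNA per cell cannot be told apart.

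The siRNA that the study lists as siSIRT1 is shown because its seed letters recur in a transcript of the set. It was taken by its name to be the one used for these libraries, which the sources do not state. Capitals mark bases 2 to 8, the seed, on each strand of the duplex core.
siSIRT1, listed strand: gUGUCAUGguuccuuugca
siSIRT1, complementary strand: uGCAAAGGaaccaugacac
The listed strand of 19 bases occurred once in the canonical SIRT1 transcript, at position 1149 from the transcript's first base and upstream of the 3′ UTR, which starts at position 2311. It occurred in no canonical transcript of the 10 genes. SIRT1 was at 10.5 and 10.3 FPKM in Control, against 1.80 and 2.05 FPKM after knockdown, a log2 change of -1.96 (SE 0.11, limma adjusted p = 1.33e-05), so the target was low in both libraries labelled siSIRT1.

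In Control cells the 10 transcripts fell into a high, a middle and a low tier. NNT was highest at 24.5 ± 0.93 FPKM (SD, n = 2), followed by NADK at 24.0 ± 0.14, QPRT at 23.3 ± 2.01, NADSYN1 at 23.0 ± 0.45 and NMNAT1 at 22.1 ± 1.89. Each of these 5 overlapped its neighbour in the order, so neighbours were not resolved. The ranges of NNT and NADK both lay wholly above those of NADSYN1 and NMNAT1. They stood between the percentiles 80.7 and 82.5 of all genes in the table. NAMPT followed at 12.1 ± 0.36 FPKM and PARP2 at 7.61 ± 0.46 FPKM, each with a range clear of its neighbours. NMNAT2 at 0.53 ± 0.092 FPKM, NMNAT3 at 0.095 ± 0.035 FPKM and NNMT at 0.075 ± 0.0071 FPKM formed the low tier, and the ranges of NMNAT3 and NNMT overlapped.

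**Figure D1:**
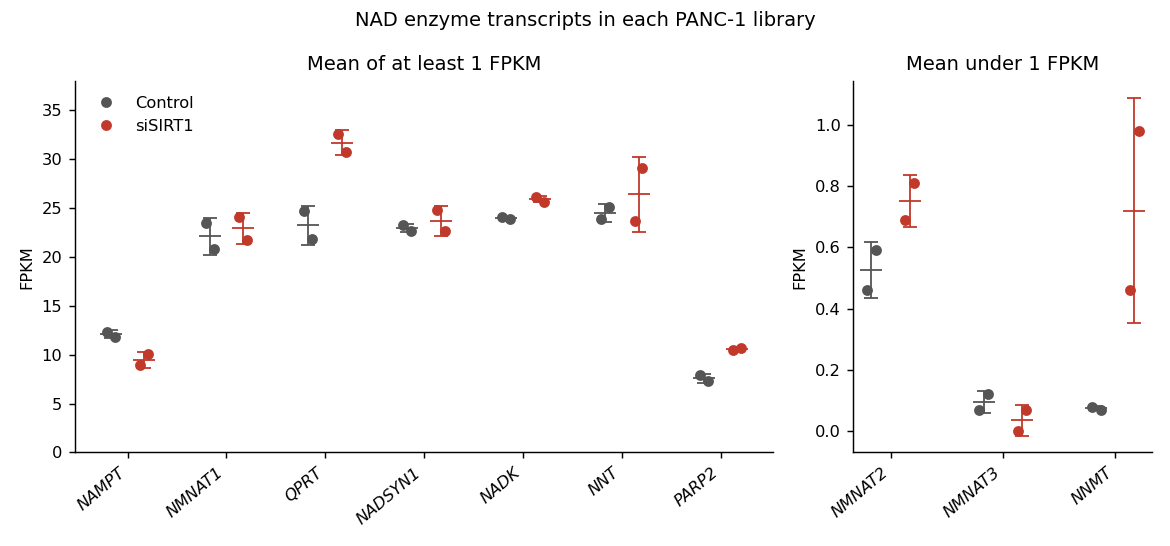
FPKM of the 10 NAD genes in each library, Control and siSIRT1, with a point per library and a line at each group mean of 2 libraries. QPRT and PARP2 were higher in both siSIRT1 libraries than in either Control library, NAMPT was lower in both, and NMNAT1, NADSYN1 and NNT overlapped between groups.

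NAMPT catalyses the rate-limiting step of salvage from nicotinamide. Its gene lies at chr7:105888744-105926412 (GRCh37, minus strand), and its canonical transcript has 11 exons and 4360 bases. NAMPT was at 12.37 and 11.86 FPKM in Control, against 8.92 and 10.04 FPKM after knockdown. Both siSIRT1 values lay below both Control values, and the mean of 9.48 ± 0.79 FPKM was 78.3% of the Control mean. The log2 change was -0.33 (95% CI -0.54 to -0.11, SE 0.095, limma adjusted p = 0.0270). The call depended on single libraries and on the filter. The adjusted p was 0.174 without Control 1, 0.103 without Control 2, 0.0808 without siSIRT1 1 and 0.0183 without siSIRT1 2, and it was 0.0645 when all genes were tested. The change stayed negative in all 11 alternatives, between -0.41 and -0.25. The annotation holds 3 pseudogenes of NAMPT, and how reads shared with them were assigned was not stated.

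The heptamers that pair with the siRNA seeds were then looked for in the canonical 3′ UTRs of the 10 genes, a search chosen after the values were seen. NAMPT was the only one of the 10 that held either of them. Its 3′ UTR of 2785 bases had 1 match to CCTTTGC, which pairs with the complementary strand's seed, and 2 matches to CATGACA, which pairs with the listed strand's seed. Capitals mark the heptamer, and positions count from the first base of the 3′ UTR.
NAMPT, position 220: ctttttagggcCCTTTGCcaataggtagt
NAMPT, position 1133: ccaatgaaaagCATGACAtgtgtttcaat
NAMPT, position 1653: aaagtttttaaCATGACAttaaatgtgaa
The 2 heptamers occur in 15.6% and 10.2% of the 3′ UTRs of tested genes, whose median length is 1305 bases. Genes with both heptamers numbered 343, had a median log2 change of 0.03 and were called lower in 16.3% of cases, against 0.08 and 13.1% for the 9187 genes with neither. Their 3′ UTRs were longer, with medians of 4929 and 979 bases. The part of these matches in the NAMPT value was not tested.

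The NMNAT isozymes carry out the same step in different compartments, NMNAT1 in the nucleus, NMNAT2 in the cytosol and at the Golgi, and NMNAT3 in mitochondria. NMNAT1 (chr1:10003486-10045559, GRCh37, plus strand) was at 23.5 and 20.8 FPKM in Control, against 24.1 and 21.8 FPKM after knockdown, so the groups overlapped. Its log2 change was 0.05 (95% CI -0.15 to 0.25, limma adjusted p = 0.685), an interval that leaves room for changes of either sign. The sign turned under rescaling of the libraries. The value of NMNAT1 is uncertain as far as reads were shared with its 5 annotated pseudogenes or with a long non-coding RNA on the same strand that covers 436 of its exonic bases.

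NMNAT2 (chr1:183217372-183387515, minus strand) was at 0.46 and 0.59 FPKM in Control, against 0.69 and 0.81 FPKM after knockdown. The siSIRT1 values were both the higher ones, and the 4 libraries held about 22.2 to 38.7 reads of it each. NMNAT3 (chr3:139279022-139396859, minus strand) was at 0.07 and 0.12 FPKM in Control, listed at 0 in siSIRT1 1 and at 0.07 FPKM in siSIRT1 2. When genes of all levels were fitted, the log2 change was 0.20 for NMNAT2 (limma adjusted p = 0.164) and -0.08 for NMNAT3 (limma adjusted p = 0.375). An opposite-strand long non-coding RNA covers 481 exonic bases of NMNAT2, and whether counting used strand was not stated.

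Of the summed FPKM of the NMNAT genes, NMNAT1 made up 97.8% and 96.7% in Control, against 97.2% and 96.1% after knockdown. NMNAT2 made up 1.92% and 2.75% in Control, against 2.79% and 3.58% after knockdown. The nuclear isozyme thus carried nearly all of the measured NMNAT transcript in every library. Exact two-sided permutation tests over libraries gave p = 0.667 for the NMNAT1 share and p = 0.333 for the NMNAT2 share, both 0.667 after adjustment over 3 shares, and 2 libraries against 2 cannot go below 0.333.

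QPRT makes nicotinic acid mononucleotide from quinolinate, the entry of the de novo route into NAD synthesis. Its gene lies at chr16:29674600-29710020 (GRCh37, plus strand), and its canonical transcript has 4 exons. QPRT was at 24.7 and 21.8 FPKM in Control, against 32.6 and 30.8 FPKM after knockdown. Both siSIRT1 libraries stood above both Control libraries, and the mean of 31.7 ± 1.29 FPKM was 136.3% of the Control mean. The log2 change was 0.43 (95% CI 0.25 to 0.62, SE 0.080, limma adjusted p = 0.00351). QPRT stayed past the threshold in all 11 alternatives, with adjusted p between 0.000113 and 0.0423 and log2 changes between 0.35 and 0.52. In limma it was also the only one of the 7 tested genes past the study's thresholds of a fold above 1.2 and p under 0.001, taken as unadjusted. It lost that place without the filter, under each of 3 rescalings, without the mean-variance trend, and without Control 2, siSIRT1 1 or siSIRT1 2. The paper does not state the test behind its own list. That list held more upregulated genes alone than the 2207 genes past these thresholds here, so the study's calls can differ.

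NADSYN1, the glutamine-dependent synthetase of the last step, lies at chr11:71164155-71235153 (plus strand). It was at 23.3 and 22.7 FPKM in Control, against 24.8 and 22.6 FPKM after knockdown. The groups overlapped, and the log2 change was 0.04 (95% CI -0.13 to 0.21, limma adjusted p = 0.696), of a sign that turned under rescaling.

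NADK, the cytosolic NAD kinase, lies at chr1:1682671-1711896 (minus strand) and was at 24.1 and 23.9 FPKM in Control, against 26.1 and 25.7 FPKM after knockdown. The groups did not overlap, but the log2 change of 0.11 (95% CI -0.05 to 0.26, limma adjusted p = 0.251) did not pass. NNT, the transhydrogenase of the inner mitochondrial membrane that makes NADPH from NADH, lies at chr5:43602794-43707507 (plus strand). It was at 23.8 and 25.2 FPKM in Control, against 23.7 and 29.1 FPKM after knockdown, where the libraries fell on both sides of the Control values. Its log2 change was 0.10 (95% CI -0.13 to 0.32, limma adjusted p = 0.469). The NNT value turned on a single library, being 0.24 (adjusted p = 0.0456) without siSIRT1 1 and -0.04 (adjusted p = 0.662) without siSIRT1 2.

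PARP2 is a DNA damage-dependent ADP-ribosyltransferase that builds poly(ADP-ribose) from NAD. Its gene lies at chr14:20811774-20826063 (GRCh37, plus strand), and its canonical transcript has 16 exons. PARP2 was at 7.93 and 7.28 FPKM in Control, against 10.5 and 10.7 FPKM after knockdown. Both siSIRT1 libraries stood above both Control libraries, and the mean of 10.6 ± 0.17 FPKM was 139.1% of the Control mean. The log2 change was 0.43 (95% CI 0.21 to 0.65, SE 0.096, limma adjusted p = 0.00823). It stayed past the threshold in 10 of 11 alternatives and missed it without Control 2, with a log2 change of 0.37 and an adjusted p of 0.0821. Opposite-strand long non-coding RNAs cover 51 and 26 exonic bases of PARP2.

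NNMT, the nicotinamide methyltransferase, lies at chr11:114128509-114184258 (plus strand). It was at 0.08 and 0.07 FPKM in Control, against 0.46 and 0.98 FPKM after knockdown. Both siSIRT1 values were the higher ones, and they lay far apart from each other. At the annotated transcript length these values stand for about 1.4 and 1.2 reads in Control and about 7.8 and 16.9 reads after knockdown, so the Control level rests on hardly any reads. When genes of all levels were fitted, the log2 change of NNMT was 0.66 (limma adjusted p = 0.0539), which did not pass.

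**Figure D2:**
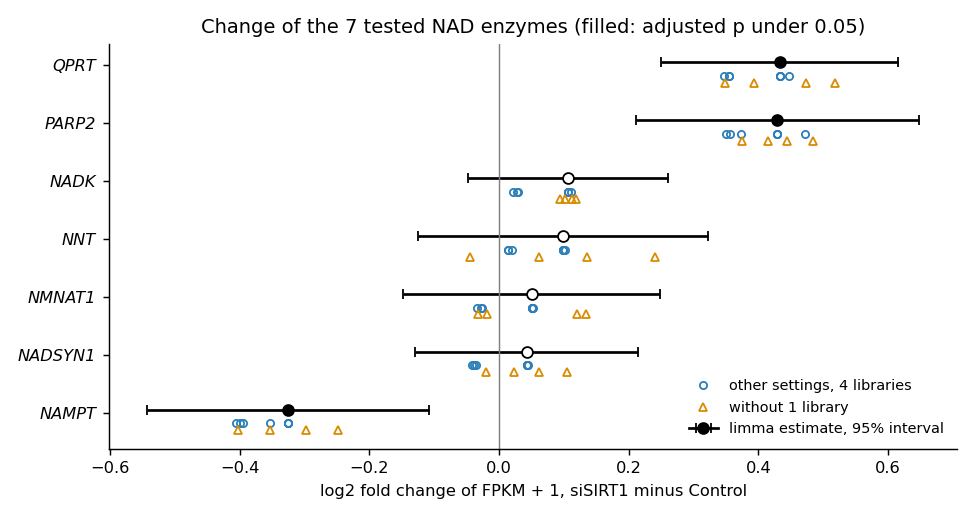
Change of each tested NAD gene on the log2(FPKM + 1) scale, siSIRT1 minus Control, with 95% confidence intervals from limma on 2 libraries per group. The intervals of QPRT and PARP2 lay above 0, that of NAMPT lay below 0, and those of NMNAT1, NADSYN1, NADK and NNT included 0.

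Of the 10 genes, 7 were tested and 3 were called, which is 42.9% of those tested beside 37.1% of all genes tested. Called higher were 2 of 7, where the background was 24% of genes, and called lower was 1 of 7, where it was 13.1%. Past the study's thresholds was 1 of 7, beside a background of 18.1%. The groups did not overlap for 4 of the 7, whereas they did not overlap for 69% of all genes. The median log2 change was 0.10 over the 7 and 0.07 over all genes tested. The counts of called genes were near those backgrounds, and nothing in them is particular to these genes.

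**Figure D3:**
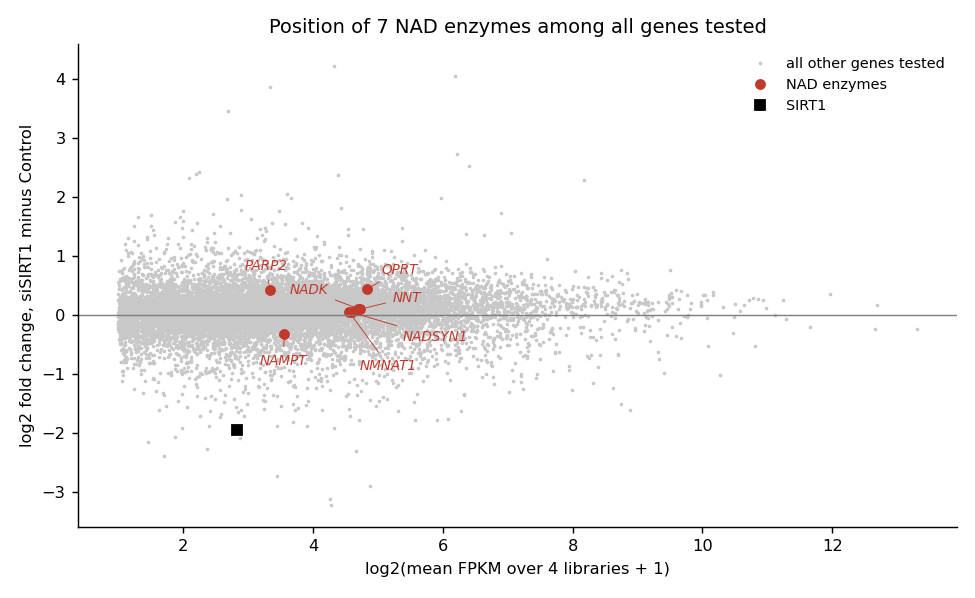
Mean level, as log2(FPKM + 1), against log2 change, siSIRT1 minus Control, for the 12191 tested genes in grey, with the 7 tested NAD genes and SIRT1 marked. The NAD genes lay within the body of the cloud, and SIRT1 lay below that body at -1.96. NT5E of the wider list, not marked, was at -1.79.

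Ratios within a library do not depend on how that library was scaled, and 6 were computed after the values were seen. QPRT stood at 1.99 and 1.84 times NAMPT in Control, against 3.65 and 3.07 times NAMPT after knockdown. PARP2 stood at 0.641 and 0.614 times NAMPT in Control, against 1.17 and 1.07 times NAMPT after knockdown, so their order was turned. QPRT relative to NADSYN1, the other tested de novo enzyme of the set, was 1.06 and 0.964 in Control, against 1.32 and 1.36 after knockdown. None of these 3 ratios overlapped between groups, and each gave p = 0.333 in an exact two-sided permutation test (0.4 adjusted over 6 ratios), the smallest that 2 against 2 libraries allow. NAMPT was also set against NAPRT, the enzyme that uses nicotinic acid as its substrate. That ratio was 0.269 and 0.261 in Control, against 0.236 and 0.308 after knockdown, which overlapped (exact permutation p = 1).

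A wider list of 50 other genes of NAD synthesis, transport and use gave 48 in the table and 40 tested. Of these, 6 rose and 9 fell, together 37.5% beside 37.1% of all genes tested, with a median log2 change of -0.05 beside 0.07. That share is near the background. Under each of 3 rescalings 12 of the 15 were called, and all 15 kept their sign. Not all of the 15 stayed called when a library was left out. Without the filter 11 genes of the wider list were called, which need not all be among the 15. In the salvage group 3 of 6 tested genes fell, NAMPT among them, and none rose. Of all genes tested 13.1% fell and 24% rose, and a group of 6 is too small to read a direction from. NAPRT was at 46.0 and 45.5 FPKM in Control, against 37.8 and 32.6 FPKM after knockdown, a log2 change of -0.37 (limma adjusted p = 0.00671). NT5E, an ectonucleotidase that can act on extracellular nucleotides, showed the largest change of the list, from 39.5 ± 1.29 to 10.8 ± 0.37 FPKM (SD, n = 2; log2 change -1.79, limma adjusted p = 2.59e-06). NMRK1, a nicotinamide riboside kinase, had a log2 change of -0.34 that missed the threshold (limma adjusted p = 0.0568). It passed under each of 3 rescalings (0.0235 to 0.0311). Outside the salvage group, PARP12, which was higher (log2 change 0.31, limma adjusted p = 0.0545), also missed the threshold. So did PARP3 (limma adjusted p = 0.0621) and OARD1 (0.0632), which were lower. PARP3 and OARD1 passed under each of the 3 rescalings too (0.0232 to 0.0286 and 0.0284 to 0.0434), and PARP12 under none (0.0923 to 0.136).

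Of the de novo group, 5 genes were tested, of which QPRT and AFMID rose and KMO fell, beside 37.1% called among all genes. AFMID, the formamidase that yields kynurenine, went from 14.3 ± 0.76 to 20.6 ± 1.31 FPKM (log2 change 0.49, limma adjusted p = 0.00231). KMO, the kynurenine hydroxylase, went from 11.7 ± 0.78 to 5.45 ± 0.40 FPKM (log2 change -0.97, limma adjusted p = 0.000248). The enzymes that lie between KMO and QPRT were near 0 in every library, KYNU at no more than 0.09 FPKM and HAAO at no more than 0.19 FPKM. The tryptophan dioxygenase TDO2 was at no more than 0.21 FPKM, while IDO1, which opens the same ring, was at 4.84 to 5.82 FPKM and did not pass. QPRT was thus measured beside very little transcript of the enzymes just upstream of it.

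Of 4 tested genes that carry NAD or its precursors, SLC29A1 and SLC29A2 fell and SLC25A51 rose, beside 37.1% called among all genes. SLC29A1, an equilibrative nucleoside transporter, went from 369 ± 3.95 to 229 ± 12.4 FPKM (log2 change -0.69, limma adjusted p = 0.000109), and SLC29A2 changed by -0.28 on the log2 scale (limma adjusted p = 0.0123, but 0.0946 without Control 1 and 0.0892 without Control 2). SLC25A51, the mitochondrial NAD carrier, went from 3.52 ± 0.22 to 6.26 ± 0.099 FPKM (log2 change 0.69, limma adjusted p = 0.00189). None of the 5 tested genes of the kinase and redox group passed, NADK and NNT included, and none of 3 in the methylation and breakdown group did, where 37.1% of all genes passed.

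The PARP family gave 5 called genes of 17 tested, PARP2 among them, 3 higher and 2 lower, a share of 29.4% beside 37.1% of all genes tested. TIPARP fell by 0.51 on the log2 scale (limma adjusted p = 0.00953), and this call was lost without Control 2. PARP16, an enzyme of the endoplasmic reticulum, fell by 0.39 (limma adjusted p = 0.0434). This call was lost without Control 1, siSIRT1 1 or siSIRT1 2. PARP1, the family member with the highest level and the main DNA damage-dependent one, rose by 0.28 on the log2 scale from 50.4 and 48.8 FPKM to 60.0 and 60.9 FPKM (limma adjusted p = 0.00667), and its adjusted p reached 0.0501 under rescaling, 0.0535 without Control 1 and 0.0984 without Control 2. The level of PARP2 relative to PARP1 was 0.157 and 0.149 in Control, against 0.175 and 0.176 after knockdown, without overlap (exact permutation p = 0.333, 0.4 adjusted over 6 ratios). PARP6 rose by 0.25 (limma adjusted p = 0.0402). This call was lost under each rescaling (0.131 to 0.171) and without Control 1, Control 2 or siSIRT1 1.

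Of the 5 tested enzymes that remove ADP-ribose 3 were called, beside 37.1% of all genes tested. MACROD1 fell by 0.65 on the log2 scale (limma adjusted p = 0.000507). ADPRH rose by 0.58 (limma adjusted p = 0.00816), and this call was lost without Control 2. ADPRS rose by 0.27 (limma adjusted p = 0.0250), and this call was lost under each rescaling (0.0828 to 0.108) and without Control 1 (0.121), Control 2 (0.182) or siSIRT1 1 (0.0531). Of the NAD hydrolases, BST1 fell by 0.43 (limma adjusted p = 0.0243), and this call was lost without Control 1, Control 2 or siSIRT1 2. CD38 was at 0.53 to 0.73 FPKM in the 4 libraries.

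**Figure D4:**
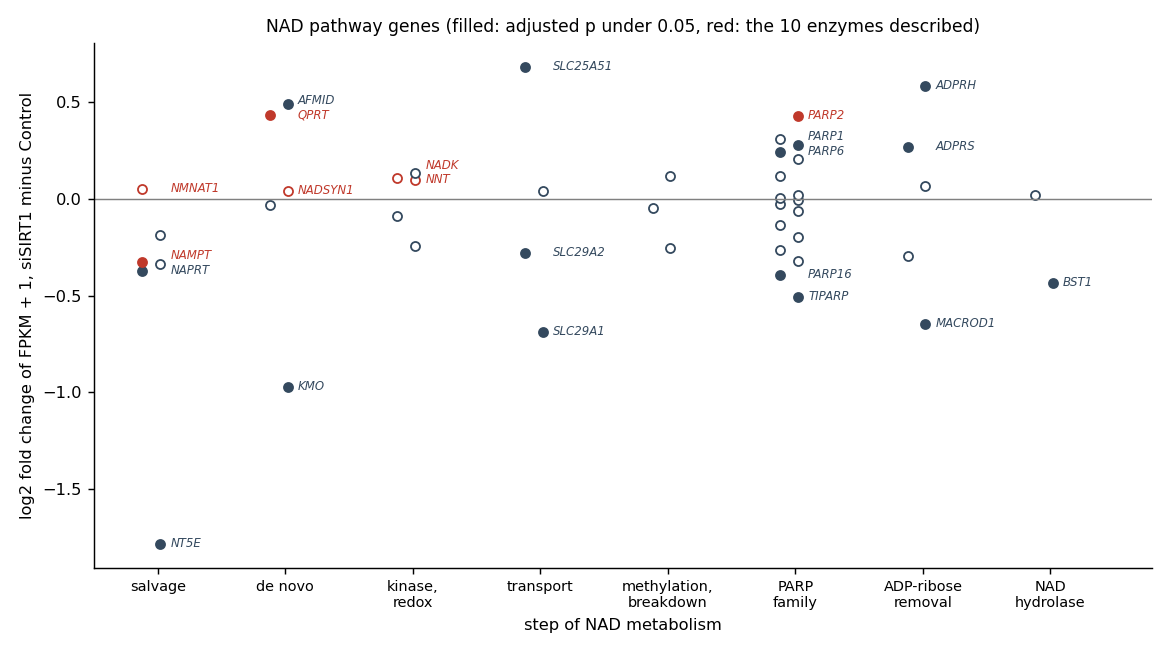
Change on the log2(FPKM + 1) scale, siSIRT1 minus Control, of every tested gene of the NAD list, grouped by step, with filled points for an adjusted p under 0.05 in limma. Called genes were all lower in the salvage group (3 of 6 tested) and the NAD hydrolase group (1 of 2). The de novo, transport, PARP and ADP-ribose removal groups held called genes in both directions. Of all genes tested 13.1% were called lower and 24% higher, and groups this small do not allow a direction to be read.

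QPRT had the largest absolute change of the tested genes of the set in the main fit on the log2(FPKM + 1) scale. PARP2 exceeded it with a pseudocount of 0.1, without Control 2 and without siSIRT1 1. Under each rescaling NAMPT had the largest absolute change (-0.41 to -0.40), ahead of PARP2 (0.35 to 0.37) and QPRT (0.35). By the Euclidean distance of centred log2(FPKM + 1) over the 4 libraries, the genes nearest to QPRT among 12190 were MAP1LC3A (0.0125), HS6ST1 (0.0125) and MYD88 (0.0246). MAP1LC3A was at 17.4 and 15.3 FPKM in Control, against 23.2 and 21.6 FPKM after knockdown. With 4 libraries, many genes lie close in this measure.

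Promoters of the genes that moved were read from RefSeq (GRCh38.p14), from 250 bases before to 50 after the start, and 9 of the 10 genes had at least 1 in that table. NNMT had none. Searched on both strands were the E-box letters CACGTG, the GC box letters GGGCGG, the letters CCAAT, the cAMP response element TGACGTCA and the octamer ATGCAAAT, partly chosen after the sequences were seen. They occur in 7.3%, 45%, 34.6%, 1.8% and 1.8% of the 35116 promoters in the table. The promoters of NAMPT and PARP2 are shown because these genes moved in opposite directions. Capitals mark the matches on either strand.
NAMPT, chr7:106284934-106285233, minus strand: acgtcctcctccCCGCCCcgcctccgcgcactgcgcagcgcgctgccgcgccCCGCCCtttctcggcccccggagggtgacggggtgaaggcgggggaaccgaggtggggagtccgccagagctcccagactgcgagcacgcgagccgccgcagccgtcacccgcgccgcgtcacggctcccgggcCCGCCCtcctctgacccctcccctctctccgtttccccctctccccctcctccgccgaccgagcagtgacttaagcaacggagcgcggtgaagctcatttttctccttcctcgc
PARP2, chr14:20343385-20343684, plus strand: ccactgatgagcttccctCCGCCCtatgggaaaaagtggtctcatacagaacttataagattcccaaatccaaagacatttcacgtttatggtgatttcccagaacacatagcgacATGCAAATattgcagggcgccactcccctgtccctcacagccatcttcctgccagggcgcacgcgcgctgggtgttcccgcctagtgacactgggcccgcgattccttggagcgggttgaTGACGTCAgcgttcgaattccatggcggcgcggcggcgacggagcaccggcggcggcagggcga
The NAMPT window held 3 GC boxes and was 73% G and C, against a median of 58.7% over all promoters. The PARP2 window held 1 GC box, 1 cAMP response element and 1 octamer and was 58.3% G and C. The QPRT windows, at 64% and 56.7% G and C, held none of the 5 motifs. These matches describe the letters of the windows, and no binding was measured in these libraries.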

How the data were processed

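Total RNA of 4 PANC-1 libraries was sequenced by the authors. The deposited tables hold FPKM per gene and library, rounded to 2 decimals, without counts. The submitters' processing notes name Bowtie2, HISAT, RSEM and ChIPseeker without roles. The genome build, strand setting and treatment of multiply mapped reads are not given in the sources used here. Depth was estimated from the steps that 1 read makes in FPKM of 477 single-exon genes and is approximate.

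Genes averaging 1 FPKM or more over the 4 libraries were tested on log2(FPKM + 1) with limma 3.58.1 in R 4.3.3 (lmFit, eBayes with a mean-variance trend, two-sided, Benjamini-Hochberg adjustment), without covariates. The 3 members below that level received no main test. Single values were tested by exact permutation over libraries. Scripts were tested on simulated data. Tables and figures used Python 3.11.15, pandas 2.3.3, numpy 2.4.6, scipy 1.17.1 and matplotlib 3.10.9.

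The members, the wider list and the tests were chosen with earlier results of these data known. Named were SIRT1, the members, up to 12 called list genes with the largest change, the 3 genes nearest in pattern to the tested member with the largest log2(FPKM + 1) change, and cell type markers. NMRK1, IDO1, TDO2, KYNU, HAAO, CD38, PARP1, PARP3, PARP6, PARP12, OARD1 and ADPRS fall outside that rule and were chosen after their values were seen. INS, GCG and ALB were not used here. Alternatives were a pseudocount of 0.1, no filter, quantile, median-of-ratios and upper-quartile scaling, a replicate block, no trend, and leaving out each library. Gene positions come from GENCODE 44 on GRCh37 and promoters from RefSeq on GRCh38.p14. A protein table was not used here.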

Additional observations from a re-analysis of the deposited data

How the results depend on the processing

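Across the alternatives SIRT1 stayed at -2.37 to -1.90 on the log2 scale. The count of all genes called was 4521, and 2691 to 4608 when a library was left out. The 3 called members became 1 to 3 when a library was left out and 2 without a filter. The 1 member past fold 1.2 and p 0.001 became 0 without a filter, under quantile, median-of-ratios or upper-quartile scaling and without the mean-variance trend, 2 with the replicate block, and 0 to 1 when a library was left out. The 15 called genes of the wider list became 8 to 16 when a library was left out (9 without Control 1, 8 without Control 2) and 11 without a filter.

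On the log2 scale, NMNAT1 turned to -0.026 under quantile, -0.034 under median-of-ratios and -0.027 under upper-quartile scaling, and ran from -0.033 to 0.13 when a library was left out. NADSYN1 turned to -0.039, -0.042 and -0.036 under the same scalings and ran from -0.020 to 0.10 when a library was left out. NNT ran from -0.044 to 0.24 when a library was left out. The cause was not tested. Rescaling moved the median log2 change of all genes from 0.07 to between -0.002 and 0.02.

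Replicate numbers in the titles are not said to pair libraries, and the deviations of same-numbered libraries correlated at only 0.123 with 2 pairs. With the replicate block 5393 genes were called, where the main fit called 4521 and the fit without a filter 3531. The block left the called members at 3 and gave 18 of the wider list. With 2 libraries per group, exact permutation tests cannot pass 0.05, and a library left alone is assumed to vary like the other group. Levels under 1 FPKM rest on few reads.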
